A study of Macaca mulatta with 12 samples.

Results

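The response of blood macrophages to 8 h of lipopolysaccharide (LPS, a bacterial cell wall product) and interferon-gamma was described at 4.5 months after transplant. Its members are the 6 of 12 libraries whose titles name the early time point, 3 stimulated (Early ACT 1, 2 and 3) and 3 unstimulated (Early CTL 1, 2 and 3). The donors were rhesus macaques (Macaca mulatta) transplanted with autologous CD34+ stem and progenitor cells that had been treated with CRISPR/Cas9. TET2-mutant hematopoiesis is named in the title of the study, and control and stimulated cells share this background. Neither the guide nor the share of edited cells is given in the sources used here, and no group without the transplant was analysed here. CD14+CD16-CD163+ cells, which the labels call macrophages, were sorted from blood and plated at 250000 cells per well. Stimulated wells received LPS at 100 ng/ml and interferon-gamma at 20 ng/ml for 8 h, and control wells neither. One label field lists only LPS as the treatment, whereas the protocol lists both agents. Whether the 3 replicates of a group are animals or wells is not stated, so the p-values reflect no more than library-to-library spread, possibly technical.

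LPS is sensed by TLR4 with CD14 and MD-2 (encoded by LY96). Signaling through the adaptor MYD88 activates NF-kB and AP-1, which drive inflammatory cytokine genes, while signaling through TRIF (encoded by TICAM1) induces interferon beta and, through it, antiviral genes. Interferon-gamma acts through its receptor and Janus kinases on genes such as IRF1, CXCL10 and the guanylate-binding proteins, and in macrophages the pair of stimuli is the classical trigger of inflammatory activation.

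The deposited table gives counts per gene. Total counts ran from 4602109 (Early ACT 1) to 12972505 (Early ACT 2) in the early libraries. Levels are given as CPM, a gene's share of the counts scaled to 1e+06, over library sizes scaled by the trimmed mean of M-values (TMM), and fold changes come from the same scaling. Early ACT 1 differed from the rest of its group. On the first principal component of the 6 libraries (43.7% of the variance) it lay at 63.98. The other stimulated libraries lay at -2.90 and -3.48 and the controls at -22.31 to -16.54. On the second (24.4%) Early ACT 1 lay at -12.20, near the controls (-22.95 to -12.40). The other stimulated libraries lay at 30.9 and 30.6 there. The number of calls in all and in each gene list is therefore also given without Early ACT 1. The markers of the sort were present, with CD14 at 2169 ± 80.6 to 2562 ± 569.7 CPM and CD163 at 1197 ± 47.3 to 1314 ± 182 CPM (unstimulated to stimulated, SD, n = 3 each), while FCGR3, which encodes CD16, had means of 39.0 and 36.1 CPM. None of these 3 genes passed the test on stimulation. Erythroid markers summed to at most 0.372 CPM in any early library.

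Stimulation changed the level of 855 of 11826 genes tested (7.23%; adjusted p under 0.05, edgeR quasi-likelihood test with Benjamini-Hochberg adjustment), 541 higher (4.57%) and 314 lower (2.66%). Without Early ACT 1 the shares were 12.4% of 12565 genes, 7.62% higher and 4.74% lower. Of the 855 genes, 160 rose and 79 fell more than 2-fold, and 31 rose and 6 fell more than 4-fold. The libraries of both groups did not overlap for 832 of the 855 genes, where 25.7% of all genes tested had no overlap. Calls were more frequent among abundant genes, with 51 higher and 1 lower of 147 genes above a mean of 1000 CPM (35.37%), against 1.42% of those under 1 CPM. Genes called higher held 19.1% to 19.3% of all counts in unstimulated and 30.5% to 31.3% in stimulated libraries, and IL1B alone held 1.36% to 1.47% and 3.86% to 4.53%. The TMM factors were 1.076 to 1.097 in unstimulated and 0.879 to 0.909 in stimulated libraries. With library totals alone and no such factors, the median log2 fold change of all genes moved from -0.0014 to -0.28, and 279 genes were called higher and 2134 lower (11.6% of calls higher, against 63.3% with the factors). Directions below are therefore relative to the median gene, and in bulk RNA fewer cells of a type and less RNA per cell cannot be told apart.

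**Figure D1:**
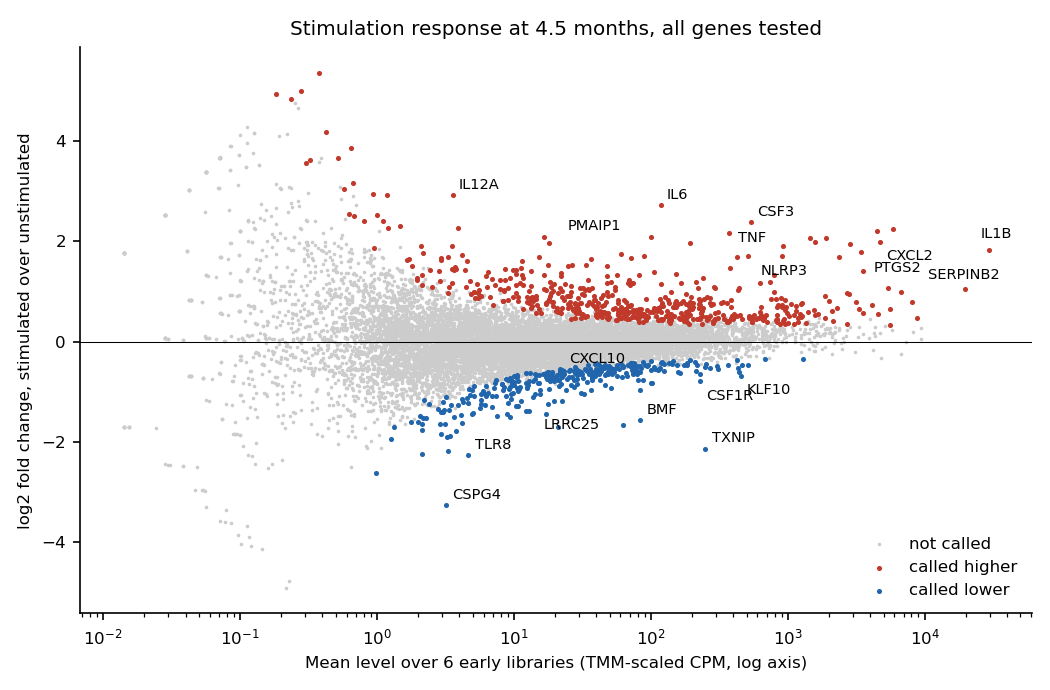
Log2 fold change of stimulated over unstimulated libraries (y axis) against the mean level over the 6 early libraries in TMM-scaled CPM (x axis, log scale), 1 point per gene tested, with the 541 genes called higher in red and the 314 called lower in blue. Above 1000 CPM, 51 genes were called higher and 1 lower, while most lower calls sit at middle and low levels.

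Of 28 tested cytokine and growth factor genes, 20 were called higher and 1 lower (21 and 2 without Early ACT 1), with a median log2 fold change of 1.31 against -0.0014 over all genes tested (1.03 with library totals alone, where that of all genes was -0.28). IL6, which encodes a cytokine of fever and the acute phase, was at 34.04, 29.1 and 30.8 CPM in the unstimulated and 199, 202 and 215 CPM in the stimulated libraries. The groups were far apart and each was tight, giving a 6.57-fold rise (log2 fold change 2.72 ± 0.13 (SE), adjusted p = 1.07e-13). CSF3, the gene of the neutrophil growth factor G-CSF, lies on chromosome 16, 45811247 to 45813583 (build Mmul_8.0.1, from the authors' tables). It was at 177, 175 and 168 CPM unstimulated and 738, 1017 and 967 CPM stimulated, lowest of the stimulated libraries in Early ACT 1, and rose 5.24-fold (log2 fold change 2.39 ± 0.12 (SE), adjusted p = 4.46e-13).

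IL1B, the gene of the pyrogenic cytokine interleukin 1 beta, was at 12386, 12688 and 13708 CPM unstimulated and 51606, 42513 and 43053 CPM stimulated. Here Early ACT 1 was the highest library, and the rise was 3.54-fold (log2 fold change 1.82 ± 0.11 (SE), adjusted p = 7.91e-12). TNF, encoding tumor necrosis factor, moved in the same way, from 384, 385 and 405 CPM to 1846, 1261 and 1296 CPM. Its rise was 3.75-fold (log2 fold change 1.91 ± 0.13 (SE), adjusted p = 7.90e-11), and without Early ACT 1 its log2 fold change was 1.71 (adjusted p = 5.46e-25). IL1A, of the same family as IL1B, rose by 1.70 ± 0.12 (adjusted p = 1.64e-10), with levels of 1110.4 ± 11.3 to 3599.9 ± 691 CPM (SD, n = 3 each).

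The subunits of interleukins 12 and 23, which direct T cells, rose from low levels. IL12A had counts of 3, 14 and 8 in the unstimulated and 19, 95 and 73 in the stimulated libraries, and the groups did not overlap (log2 fold change 2.93 ± 0.36 (SE), adjusted p = 3.24e-06). IL12B, the subunit that both cytokines share, was at 0.877, 1.67 and 3.07 and 5.695, 5.52 and 8.36 CPM (log2 fold change 1.73 ± 0.33 (adjusted p = 0.00116)). IL23A, the subunit specific to interleukin 23, was better covered, at 42.2 ± 3.88 to 137 ± 5.92 CPM, and rose by 1.70 ± 0.12 (adjusted p = 1.31e-10). IL10, which dampens macrophage activation, rose less, 1.54-fold, from 24.4, 21.8 and 24.7 CPM to 38.1, 35.4 and 35.7 CPM (adjusted p = 0.00612). Its call was lost without Early CTL 2 (adjusted p = 0.0621) and with library totals alone (0.0822). Members named after their values were seen include CSF1, the macrophage growth factor (1.34), LIF (1.51) and the epidermal growth factor family genes EREG (1.42) and AREG (1.27). The call in the other direction, also named after its value was seen, was TNFSF10, the gene of the death ligand TRAIL (-1.65, adjusted p = 0.0485), which is also in the type I interferon list.

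Of 13 tested chemokine genes, 8 were called higher and none lower (9 and none without Early ACT 1), with a median log2 fold change of 1.37 (1.1 with library totals alone). CCL3, which attracts monocytes and T cells and lies on chromosome 16, 30056045 to 30057421, was at 544, 564 and 571 CPM unstimulated and 2269.7, 2389 and 2391 CPM stimulated. All 3 stimulated libraries were alike, and the rise was 4.197-fold (log2 fold change 2.07 ± 0.11 (SE), adjusted p = 7.09e-13). CCL4L1, a close relative of CCL4, rose 4.59-fold (2.20 ± 0.12 (adjusted p = 7.09e-13)), though reads of such near-identical copies may have been split between genes. The neutrophil attractants CXCL1 and CXCL2, which are also close copies of each other, rose by 1.95 ± 0.12 and 1.99 ± 0.14 (SE). CXCL2 was at 5287, 8360.0 and 8768 CPM in the stimulated libraries, lowest in Early ACT 1, against 1861, 1929 and 1836 CPM in the controls. The monocyte attractants CCL2 (1.76 ± 0.14) and CCL7 (1.37 ± 0.16) and CCL20 (1.69 ± 0.11), a ligand of CCR6, rose as well.

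**Figure D2:**
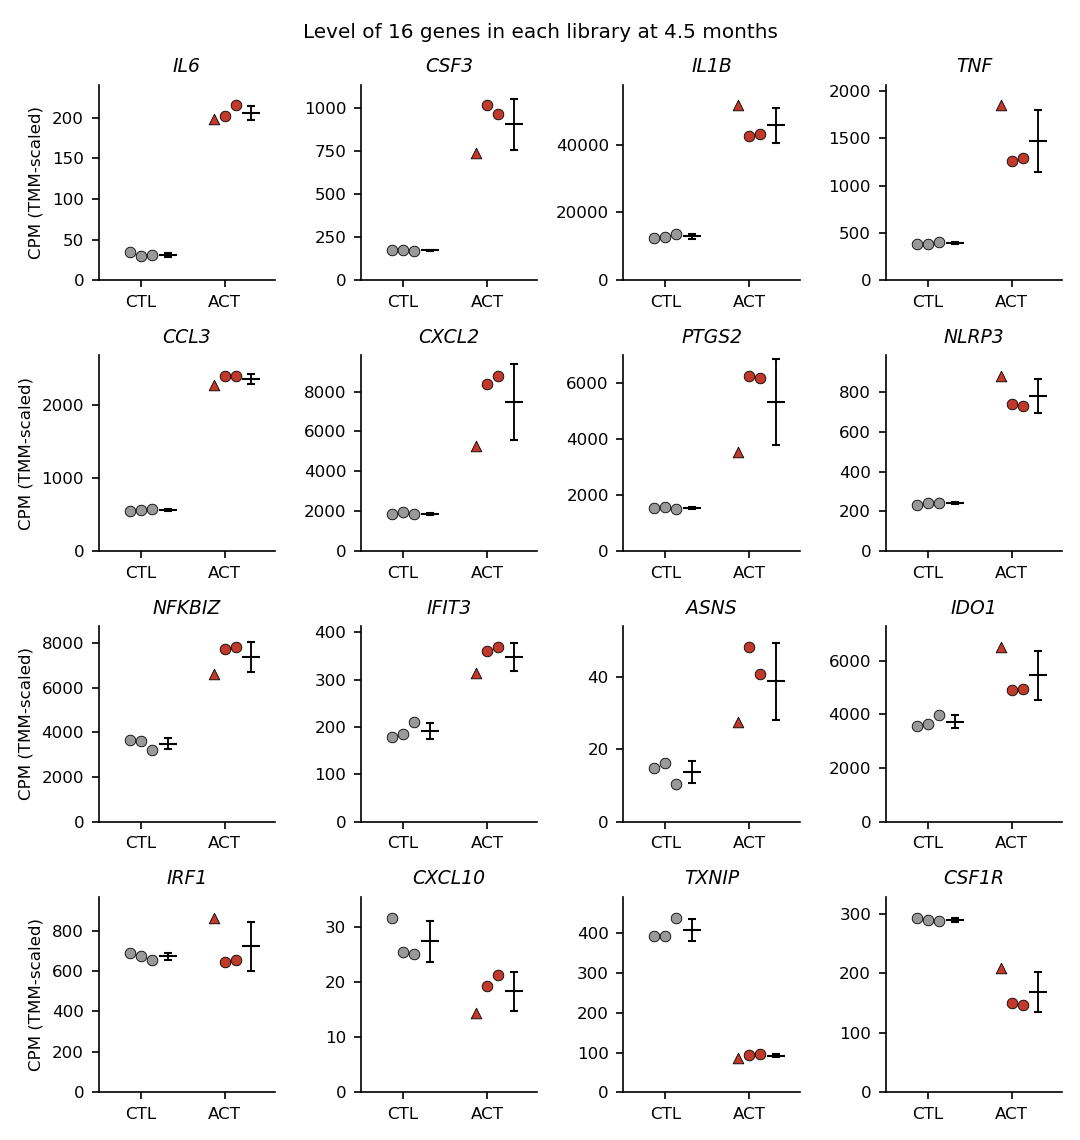
Level of 16 genes in each early library (TMM-scaled CPM, linear axes from 0), unstimulated in grey and stimulated in red, with Early ACT 1 as a triangle and the mean ± SD of the 3 libraries beside each group. The groups overlap for IRF1 only among the 16. Early ACT 1 is the highest stimulated library for IL1B, TNF, NLRP3, IDO1, IRF1 and CSF1R. It is the lowest for the other genes, among them CSF3, CXCL2, PTGS2 and ASNS, and by little for IL6, CCL3 and TXNIP.

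Among 24 tested receptors and adaptors of LPS and interferon signaling, 3 were called higher and 2 lower (4 and 2 without Early ACT 1), with a median of 0.00 (-0.28 with library totals alone). TLR8, an endosomal sensor of single-stranded RNA, fell most: it had counts of 59, 78 and 90 unstimulated and 2, 23 and 22 stimulated, or 8.62, 7.26 and 7.68 CPM against 0.495, 1.95 and 1.88 CPM. The groups did not overlap, and the change was -2.26 ± 0.41 (adjusted p = 0.000522). TLR4 itself was at 708, 732 and 738 CPM unstimulated and 809, 1042 and 1003 CPM stimulated, 1.31-fold higher (adjusted p = 0.0312), and its adaptor gene TICAM1 was 1.28-fold higher (0.04). Both calls were lost on leaving out any unstimulated library or Early ACT 2 or 3 (adjusted p 0.0688 to 0.167). They were also lost with library totals alone (0.490 and 0.630). Both held without Early ACT 1 (1.37e-06 for TLR4 and 0.00349 for TICAM1). IRAK2, a kinase downstream of MYD88, was higher (0.63 ± 0.17 (adjusted p = 0.0205)), and TLR1, a partner of TLR2, lower (-0.68 ± 0.21 (adjusted p = 0.0472)). Both lost their calls without Early ACT 1 (adjusted p = 0.209 and 0.0915), and also on leaving out any other early library (0.0541 to 0.138). The change without Early ACT 1 was 0.62 ± 0.27 for IRAK2 and -0.51 ± 0.20 for TLR1. With library totals alone the call of IRAK2 was lost as well (0.153).

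The NF-kB list had 7 of 27 tested members higher and none lower (median 0.26, and -0.02 with library totals alone), and 11 higher and 1 lower without Early ACT 1. The members that rose most include inhibitors and targets of the pathway. NFKBIZ, which encodes an atypical nuclear member of the I-kappa-B protein family, was at 3672, 3602 and 3204 CPM unstimulated. It was at 6586, 7724 and 7818 CPM stimulated, without overlap (log2 fold change 1.08 ± 0.15 (SE), adjusted p = 3.42e-05). TNFAIP3, which encodes the deubiquitinase A20, rose 1.88-fold (0.91 ± 0.10 (adjusted p = 4.18e-07)) and was at 2570.3, 2451 and 2355 CPM in the 3 stimulated libraries against 1323, 1293 and 1299 CPM. NFKBIA, the gene of the inhibitor that holds NF-kB in the cytoplasm, rose by 0.79 ± 0.11 (adjusted p = 2.69e-05) and TRAF1, an adaptor of TNF receptors, by 0.96 ± 0.12 (adjusted p = 3.04e-06). The subunit genes moved less, with NFKB2 1.36-fold higher (adjusted p = 0.00959), a call lost without Early CTL 1 (0.0705), without Early CTL 3 (0.0641) and with library totals alone (0.268).

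Feedback inhibitors of LPS and interferon signaling had 10 of 24 tested members higher and 2 lower (median 0.13, and -0.15 with library totals alone), and 9 higher and 2 lower without Early ACT 1. IL1R2, a decoy receptor of interleukin 1, was at 36.4, 35.2 and 35.3 CPM unstimulated and 85.4, 66.6 and 66.8 CPM stimulated (1.02 ± 0.14 (adjusted p = 1.13e-05)). SOCS3, an inhibitor of cytokine receptor signaling, was 1.59-fold higher (0.67 ± 0.12 (adjusted p = 0.000457)). The phosphatase gene DUSP16 rose by 0.76 ± 0.16 (adjusted p = 0.00331) but lost its call without Early ACT 1 (0.77 ± 0.24 (adjusted p = 0.0873)). ZC3H12A and ZC3H12C, whose family of RNases degrades cytokine transcripts, were 1.45-fold and 1.67-fold higher, the first of which was not called with library totals alone (0.105). NLRP12, a negative regulator of NF-kB in myeloid cells, fell from 111, 107 and 109 CPM to 66.4, 50.4 and 52.8 CPM (-0.96 ± 0.14 (adjusted p = 5.92e-05)).

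Type I interferon-stimulated genes had 12 of 38 tested members higher and 1 lower, with a median of 0.36 (0.08 with library totals alone), and 18 higher and 1 lower without Early ACT 1. OASL, related to the oligoadenylate synthetases, was at 123, 123 and 142 CPM unstimulated and 374, 251 and 264 CPM stimulated, highest in Early ACT 1 (log2 fold change 1.19 ± 0.14 (SE), adjusted p = 1.57e-06). IFIT3, which restrains translation of viral RNA with its relatives, was at 179, 186 and 210.3 and 315, 359.7 and 369 CPM, a rise of 0.86 ± 0.12 (adjusted p = 1.82e-05). The cytosolic RNA sensor genes DHX58 and RIGI rose by 1.07 ± 0.13 (adjusted p = 1.62e-06) and 0.81 ± 0.13 (adjusted p = 0.000146), and ISG20, an exonuclease gene, by 1.07 ± 0.13 (adjusted p = 3.19e-06). MX1, a dynamin-like antiviral GTPase gene, was at 249, 239.7 and 253 CPM unstimulated and 348, 334 and 331 CPM stimulated. The groups lay apart by little, 1.37-fold (adjusted p = 0.00782), and the call was lost without Early CTL 1 (0.05001), without Early CTL 2 (0.0674) and with library totals alone (0.248). OAS2, an oligoadenylate synthetase gene, was 1.497-fold higher (0.58 ± 0.13 (adjusted p = 0.00649)), not called with library totals alone (0.109). DDX60, an antiviral helicase gene outside the list, rose 4.23-fold (2.08 ± 0.24 (adjusted p = 1.09e-06)), with levels of 8.91, 5.68 and 5.204 and 16.8, 25.2 and 37.5 CPM.

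The interferon-gamma response list had 3 of 28 tested members higher and 2 lower, with a median of -0.01 (-0.29 with library totals alone), and 6 higher and 3 lower without Early ACT 1. IRF1, a transcription factor gene and early target, was at 689, 672 and 654 and 863, 646 and 655 CPM (0.10 ± 0.12 (adjusted p = 0.6804)), with only Early ACT 1 above the controls. CXCL10, a chemokine gene induced by both interferon types, was at 31.7, 25.5 and 25.1 CPM unstimulated and 14.4, 19.4 and 21.3 CPM stimulated. Its stimulated libraries all lay below the controls, but the difference did not pass (-0.55 ± 0.22 (adjusted p = 0.136)). CD274, which encodes PD-L1, was likewise lower without passing (-0.40 ± 0.15 (adjusted p = 0.107)). IDO1, the tryptophan-degrading enzyme gene, was at 3548, 3641 and 3991 CPM and 6506, 4916 and 4933 CPM, a rise of 1.46-fold (0.55 ± 0.12 (adjusted p = 0.00281)) that was not called with library totals alone (0.0786). Also higher were FCGR1A, the high-affinity Fc receptor gene (1.38-fold, adjusted p = 0.0107), and XAF1 (1.397-fold, 0.0339), while the guanylate-binding genes GBP6 (-0.65) and GBP7 (-1.09) were lower. Each of these last 4 calls was lost without Early CTL 1 and without Early CTL 2. Those of XAF1, GBP6 and GBP7 were also lost without Early CTL 3 or Early ACT 2. Without Early ACT 3 those of XAF1 and GBP7 were lost (adjusted p 0.0581 to 0.183 over these left-out libraries). All 4 held without Early ACT 1, while FCGR1A and XAF1 were not called with library totals alone (0.228 and 0.311). Other members such as CXCL9, GBP1, GBP2, GBP4 and GBP5 were not analysed here, most for want of a usable name or for low counts.

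Genes of class II antigen presentation, textbook targets of interferon-gamma through CIITA, had none of 10 tested members called (median -0.06, and -0.34 with library totals alone). Without Early ACT 1, 1 was lower. The list holds 16 genes, and those not found in the count table under a usable name were not examined. CIITA was at 106, 86.4 and 72.7 CPM unstimulated and 149, 102 and 101 CPM stimulated, overlapping (0.41 ± 0.24 (adjusted p = 0.345)). CD74, the invariant chain gene, was at 6395, 4321 and 4316 CPM in the stimulated libraries, where Early ACT 1 lay above the other 2, against 4315, 4360.2 and 4629.8 CPM (0.18 ± 0.13 (adjusted p = 0.469)).

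Costimulatory and adhesion genes had 5 of 24 tested members higher and 1 lower (median 0.20, and -0.08 with library totals alone), and 8 higher and 3 lower without Early ACT 1. CD276, an immune checkpoint ligand gene, was at 10.5, 8.28 and 8.28 CPM unstimulated and 32.4, 23.3 and 23.04 CPM stimulated, without overlap (log2 fold change 1.53 ± 0.19 (SE), adjusted p = 2.74e-06). CD80, the costimulatory ligand gene used as a marker of inflammatory macrophages, was at 17.2 ± 3.61 to 19.7 ± 2.16 CPM and did not pass (0.21 ± 0.19 (adjusted p = 0.577)). ITGAL, an integrin gene, was the lower call (-0.49 ± 0.13 (adjusted p = 0.0157)), lost without Early CTL 2 or 3 or Early ACT 2 or 3 (adjusted p 0.0589 to 0.09698).

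Inflammasome genes had 5 of 20 tested members higher and 2 lower (median 0.25, and -0.03 with library totals alone), and 6 higher and 1 lower without Early ACT 1. NLRP3, the sensor that assembles the inflammasome, lies on chromosome 1, 224050419 to 224079599 and was at 234, 243 and 243 CPM unstimulated and 882, 739 and 729 CPM stimulated. All stimulated libraries were above all controls, a 3.26-fold rise (log2 fold change 1.70 ± 0.11 (SE), adjusted p = 2.01e-11). GSDME, a pore-forming gasdermin gene, rose by 0.77 ± 0.11 (adjusted p = 4.01e-05), and AIM2, a sensor of cytosolic DNA, by 0.67 ± 0.15 (adjusted p = 0.00393). AIM2 was at 189, 302 and 338 CPM in the stimulated libraries, so that Early ACT 1 lay near the controls (177, 182 and 164 CPM), and its log2 fold change without that library was 0.88 (adjusted p = 8.09e-12). Its call was lost with library totals alone (0.06096).

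TXNIP, the gene of a thioredoxin-binding protein that curbs glucose uptake and is listed here as an NLRP3 partner, had the largest drop among the genes named here with a mean of at least 20 CPM. It lies on chromosome 1, 121623743 to 121630937 and was at 391.6, 393 and 439 CPM unstimulated and 87.4, 94.3 and 95.6 CPM stimulated. The 3 stimulated libraries were alike and all far below the controls, a 4.4-fold drop (log2 fold change -2.14 ± 0.12 (SE), adjusted p = 7.09e-13). ARRDC3, another arrestin-domain gene, fell as well, from 63.6, 72.2 and 66.9 CPM to 32.2, 35.6 and 38.99 CPM (-0.92 ± 0.14 (adjusted p = 8.37e-05)).

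Immunometabolic enzymes had 6 of 18 tested members higher and none lower (median 0.24, and -0.04 with library totals alone), and 9 higher and 2 lower without Early ACT 1. ACOD1, which makes itaconate, was at 4327, 4283 and 4747 CPM unstimulated and 9075, 8748 and 8877 CPM stimulated, 1.999-fold higher (log2 fold change 1.00 ± 0.10 (SE), adjusted p = 1.37e-07). PNP, a purine salvage enzyme gene, rose by 0.80 ± 0.12 (adjusted p = 5.92e-05), GCH1, which starts tetrahydrobiopterin synthesis, by 0.77 ± 0.15 (adjusted p = 0.00153), and SOD2, mitochondrial superoxide dismutase, by 0.47 ± 0.10 (adjusted p = 0.00281), the last not called with library totals alone (0.141). PTGS2, which encodes the inducible cyclooxygenase of prostaglandin synthesis, was at 1519, 1572 and 1508 CPM unstimulated and 3556, 6253 and 6172 CPM stimulated. Early ACT 1 lay between the controls and the other stimulated libraries, and the rise was 3.48-fold (log2 fold change 1.80 ± 0.15 (SE), adjusted p = 3.15e-09). LTA4H, which makes leukotriene B4, fell by 0.60 on the log2 scale (adjusted p = 0.00259), and no other of the 16 tested members of the prostaglandin and leukotriene list was called (1 higher and 1 lower also without Early ACT 1).

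Glycolysis genes had 3 of 25 tested members higher and 2 lower (median 0.09, and -0.19 with library totals alone), and 5 higher and 2 lower without Early ACT 1. Over all genes tested, 4.57% were called higher and 2.66% lower, with more calls among abundant genes. The glucose transporter gene SLC2A1 was at 296, 278 and 272 CPM unstimulated and 625, 555 and 554 CPM stimulated, 2.05-fold higher (1.03 ± 0.11 (adjusted p = 1.74e-07)), and HK2, which traps glucose in the cell, rose by 0.76 ± 0.12 (adjusted p = 9.67e-05). The genes of the last steps were lower: SLC16A3, a lactate exporter, was at 624, 569 and 581 CPM and 476, 407 and 405 CPM (-0.46 ± 0.11 (adjusted p = 0.00949)), with its call lost without Early CTL 1 (0.0666), and LDHA, lactate dehydrogenase, was 1.28-fold lower (adjusted p = 0.0346), lost on leaving out any early library but Early ACT 1 (0.0635 to 0.153). None of 29 tested genes of oxidative phosphorylation was called (median -0.0039, and -0.28 with library totals alone), and 1 was lower without Early ACT 1.

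Matrix protease and coagulation genes had 12 of 33 tested members higher and none lower (median 0.40, and 0.13 with library totals alone), and 14 higher and none lower without Early ACT 1. PLAUR, the urokinase receptor gene, was at 399.8, 418 and 452 CPM unstimulated and 1741, 1185 and 1202 CPM stimulated, highest in Early ACT 1 (log2 fold change 1.70 ± 0.14 (SE), adjusted p = 1.49e-09). Among the metalloproteinase genes, MMP10 rose 2.78-fold (1.47 ± 0.11 (adjusted p = 2.38e-10)) and MMP1, an interstitial collagenase, 2.27-fold (1.18 ± 0.11 (adjusted p = 1.57e-08)). The inhibitor genes TFPI2 (1.33 ± 0.13 (adjusted p = 4.42e-08)) and SERPINB2 (1.05 ± 0.10 (adjusted p = 2.12e-08)), the latter an inhibitor of urokinase, rose too. SERPINB2 was at 12644, 12917 and 13037 CPM in the controls and 25206, 26923 and 27723 CPM in the stimulated libraries.

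Genes of the integrated stress response and the unfolded protein response, which adjust amino acid supply and protein folding, had 12 of 21 tested members higher and none lower (median 0.47, and 0.19 with library totals alone), and the same numbers without Early ACT 1. ASNS, asparagine synthetase, was at 14.8, 16.3 and 10.5 CPM unstimulated and 27.5, 48.4 and 40.8 CPM stimulated, 2.87-fold higher (log2 fold change 1.52 ± 0.19 (SE), adjusted p = 3.04e-06). CHAC1, which degrades glutathione, was at 34.9, 29.96 and 32.2 and 80.97, 85.3 and 78.2 CPM, a rise of 1.33 ± 0.13 (adjusted p = 3.85e-08), and the stimulated libraries were alike. The serine and one-carbon enzyme genes SHMT2 (1.16), PHGDH (1.30), PSAT1 (1.19) and MTHFD2 (0.85) also rose (adjusted p from 1.13e-05 to 0.00394), the last 3 named after their values were seen. SESN2, a stress sensor of nutrient supply, rose by 1.07 ± 0.12 (adjusted p = 5.41e-07), and of the endoplasmic reticulum branch XBP1, a transcription factor, by 0.73 ± 0.11 (adjusted p = 3.45e-05) and PPP1R15A, which ends the translation block, by 0.66 ± 0.10 (adjusted p = 8.66e-05).

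**Figure D3:**
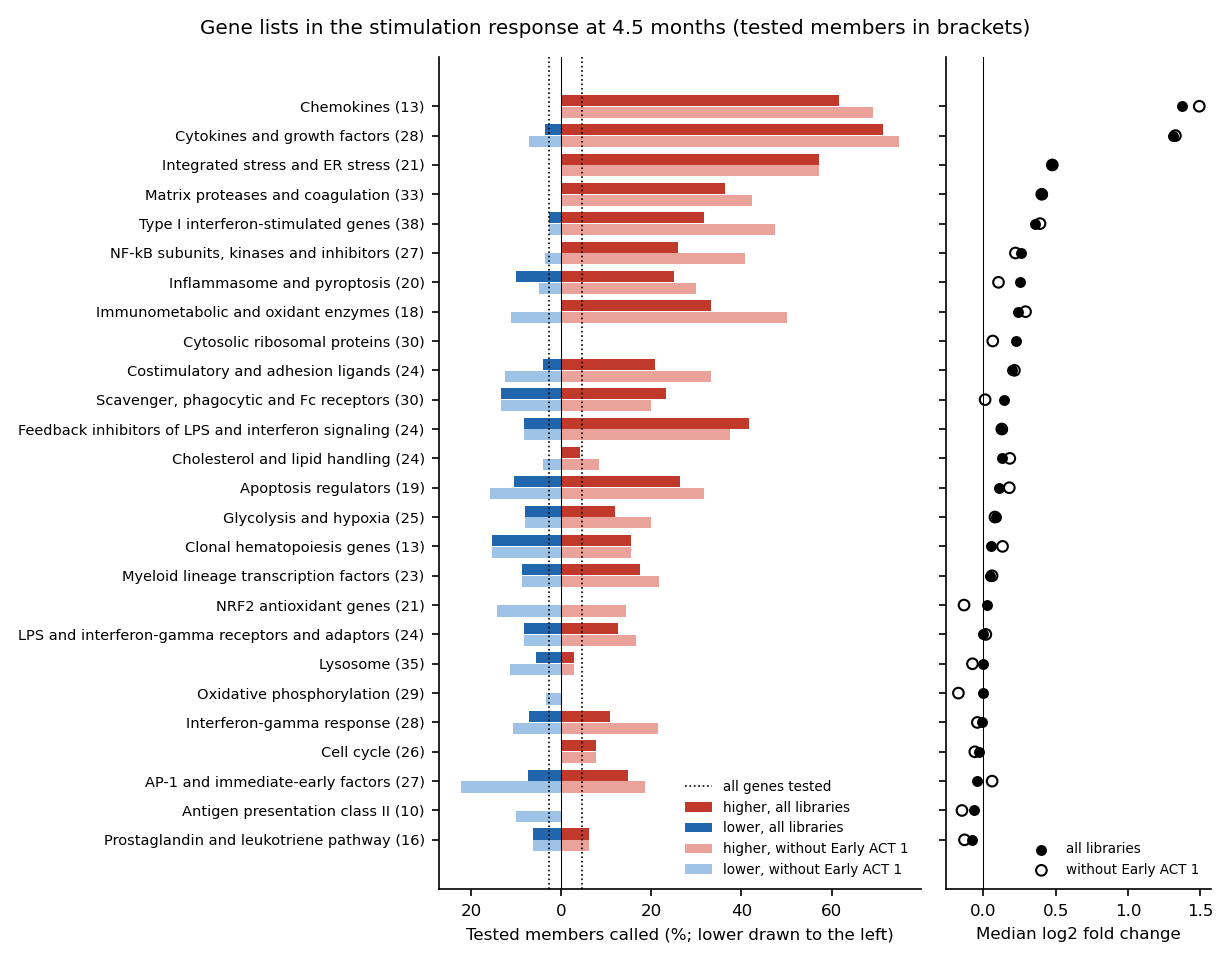
Left, percent of the tested members of each gene list called higher (red, to the right) or lower (blue, to the left), with the same counts without Early ACT 1 in pale bars and the shares over all genes tested as dotted lines (4.57% and 2.66%). Right, median log2 fold change of each list with (filled) and without (open) Early ACT 1, highest for chemokines (1.37) and cytokines (1.31).

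Apoptosis regulators had 5 of 19 tested members higher and 2 lower (median 0.11, and -0.16 with library totals alone), and 6 higher and 3 lower without Early ACT 1. PMAIP1, which encodes the proapoptotic protein NOXA, was at 35.7, 40.5 and 37.8 CPM unstimulated and 89.1, 192 and 202 CPM stimulated. Early ACT 1 was less than the other stimulated libraries but above every control, and the rise was 4.28-fold (log2 fold change 2.10 ± 0.19 (SE), adjusted p = 5.35e-08), or 2.37 on the log2 scale without that library. BCL2A1, a prosurvival member of the same family, rose by 0.69 ± 0.12 (adjusted p = 0.000293). BMF, a proapoptotic member, moved the other way, from 117, 127 and 132 CPM to 43.6, 43.1 and 40.6 CPM with both groups tight (log2 fold change -1.56 ± 0.12 (SE), adjusted p = 1.24e-09), and CASP10, a death receptor caspase gene, fell by 1.43 on the log2 scale (adjusted p = 0.00192). In the cell cycle list 2 of 26 tested members were higher: CCNB1, the mitotic cyclin B1, at 7.16, 6.61 and 8.45 CPM and 21.8, 31.7 and 31.9 CPM (1.96 ± 0.19 (adjusted p = 4.04e-08)), and CDKN1A, the cell cycle inhibitor p21 (0.73 ± 0.10 (adjusted p = 3.01e-05)). No member of that list was lower (median -0.03, and -0.30 with library totals alone), and the counts were the same without Early ACT 1. The share called higher over all genes tested was 4.57%, and it was larger among abundant genes.

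Scavenger, phagocytic and Fc receptors had 7 of 30 tested members higher and 4 lower (median 0.15, and -0.13 with library totals alone), and 6 higher and 4 lower without Early ACT 1. CSF1R, the receptor of the macrophage growth factor, was at 293, 289 and 287 CPM unstimulated and 208, 150.4 and 147 CPM stimulated. All stimulated libraries were below the controls, Early ACT 1 the least so, and the change was -0.79 ± 0.13 (adjusted p = 0.000237). CXCR4, a chemokine receptor gene, fell from 45.99 ± 4.25 to 27.9 ± 1.72 CPM (SD, n = 3 each; -0.72 ± 0.14 (adjusted p = 0.00114)), and CCR2, the receptor of CCL2, had counts too low for a firm value (-1.78 ± 0.47 (adjusted p = 0.0174), lost without Early CTL 1 or 3 or Early ACT 3, adjusted p 0.05005 to 0.111). TREM2, a lipid receptor gene, rose by 0.75 ± 0.12 (adjusted p = 8.37e-05).

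Transcription factors were called in both directions, where 4.57% of all genes tested were called higher and 2.66% lower. Of 27 tested AP-1 and immediate-early genes 4 were higher and 2 lower (median -0.04, and -0.32 with library totals alone), and 5 higher and 6 lower without Early ACT 1. MAFF, a small MAF protein gene, was at 176, 174 and 174 CPM and 326, 319 and 302 CPM (0.85 ± 0.11 (adjusted p = 3.19e-06)), and FOSL1, an AP-1 subunit gene, rose by 0.72 ± 0.11 (adjusted p = 4.94e-05). KLF10, induced by TGF-beta, fell from 566, 566 and 537 CPM to 323, 357 and 361 CPM (-0.68 ± 0.10 (adjusted p = 7.07e-05)). Of 23 tested myeloid lineage factors 4 were higher and 2 lower (median 0.05, and -0.22 with library totals alone), and 5 higher and 2 lower without Early ACT 1. ETS2 was at 684, 679.8 and 698 CPM unstimulated and 1208, 1246 and 1188 CPM stimulated (0.82 ± 0.10 (adjusted p = 2.50e-06)), ID2, an inhibitor of basic helix-loop-helix factors, rose by 0.78 ± 0.11 (adjusted p = 3.89e-05), and CEBPD, an inflammatory C/EBP factor, fell by 0.76 on the log2 scale (adjusted p = 0.00205).

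The genes with the largest drops were mostly low. CSPG4, a surface proteoglycan gene, had counts of 43, 71 and 56 in the unstimulated and 0, 5 and 12 in the stimulated libraries (-3.26 ± 0.42 (adjusted p = 7.95e-06)). TIFAB, a relative of an adaptor of NF-kB signaling, was at 5.11, 5.397 and 5.72 CPM and 0.9905, 0.849 and 1.62 CPM (-2.18 ± 0.40 (adjusted p = 0.000619)), and ANPEP, the aminopeptidase CD13, at 4.82, 5.02 and 6.14 and 1.73, 1.36 and 1.37 CPM (-1.88 ± 0.42 (adjusted p = 0.00494)). LRRC25, a leucine-rich repeat gene of myeloid cells, was better covered and fell from 102, 95.4 and 86.9 CPM to 37.6, 27.9 and 26.2 CPM (log2 fold change -1.66 ± 0.15 (SE), adjusted p = 1.39e-08). All of its stimulated libraries were below all controls, with Early ACT 1 the highest of them. TFEB, the master regulator of lysosomal genes, fell from 32.1, 32.8 and 35.3 CPM to 22.04, 17.3 and 16.9 CPM (-0.86 ± 0.18 (adjusted p = 0.002803)), while of the 35 tested lysosomal genes, which include TFEB, 1 was called higher and 2 lower (median -0.0017, and -0.28 with library totals alone), and 1 higher and 4 lower without Early ACT 1.

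Further lists had few or no calls. Cholesterol and lipid handling had 1 of 24 tested members higher, PLIN2, which coats lipid droplets (0.68 ± 0.12 (adjusted p = 0.000382)), and none lower (median 0.13, and -0.15 with library totals alone), against 2 higher and 1 lower without Early ACT 1. No member was called among 21 tested NRF2 antioxidant genes (median 0.02, and -0.25 with library totals alone), where 3 were higher and 3 lower without Early ACT 1. Of 30 tested cytosolic ribosomal protein genes none was called with or without Early ACT 1, and their median was 0.23 with it, 0.07 without it and -0.05 with library totals alone.

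TET2, the DNA demethylase gene named in the study's title, was at 245, 257 and 244 CPM unstimulated and 285, 343 and 338 CPM stimulated. The groups did not overlap, and it was 1.297-fold higher (0.38 ± 0.11 (adjusted p = 0.0306)). Without Early ACT 1 its log2 fold change was 0.46 (adjusted p = 1.17e-05), but the call was lost in 9 of 13 alternatives, among them each of the other early libraries left out in turn (0.0934 to 0.139) and library totals alone (0.54). A gene level does not show which share of transcripts carried an edit. The clonal hematopoiesis list holds genes recurrently mutated there and, as relatives of TET2, TET1 and TET3. Of its 13 tested members 2 were higher, TET2 and TET3 (0.58 ± 0.16 (adjusted p = 0.0204)), and 2 lower, BCOR, a corepressor gene (-0.81 ± 0.19 (adjusted p = 0.00649)), and CBL, a ubiquitin ligase gene (-0.64 ± 0.18 (adjusted p = 0.0274)). The counts were the same without Early ACT 1, and the median was 0.06, and -0.22 with library totals alone. The call of TET3 was lost without Early CTL 2 or 3 or Early ACT 2 (adjusted p 0.0536 to 0.159) and with library totals alone (0.174). That of CBL was lost on leaving out any unstimulated library (0.0622 to 0.102) and that of BCOR without Early ACT 3 (0.05199). Fitting only the early libraries also lost TET3 and CBL (0.0917 and 0.0876).

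Early ACT 1 had 4602109 counts, against 12972505 and 12934170 in Early ACT 2 and 3. A mean of at least 20 CPM over the early libraries was reached by 4729 genes. In Early ACT 1, 203 of these differed more than 2-fold from the mean of the other 2 stimulated libraries, 201 lower and 2 higher. In every other early library 0 or 1 gene differed this much from its group mates. Of the 203, 7 were among the genes called on stimulation, where 7.23% of all genes tested were called. Genes chosen for a wide spread among the stimulated libraries pass the test less readily. This count therefore does not measure the part of Early ACT 1 in the calls. The genes lowest in Early ACT 1 included PDS5B, a cohesin factor gene, at 3.96, 16.98 and 19.7 CPM in the stimulated libraries against 30.1, 27.3 and 21.9 CPM unstimulated. C1GALT1, a glycosyltransferase gene (13.4, 47.6 and 45.6 CPM), and TIFA, an adaptor of NF-kB signaling (13.9, 41.5 and 44.4 CPM), were low in it alone. PIH1D1 (38.6, 18.8 and 16.2 CPM) and the translation initiation factor gene EIF3I (35.9, 17.6 and 15.4 CPM) were high in it alone. What set this library apart was not tested.

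**Figure D4:**
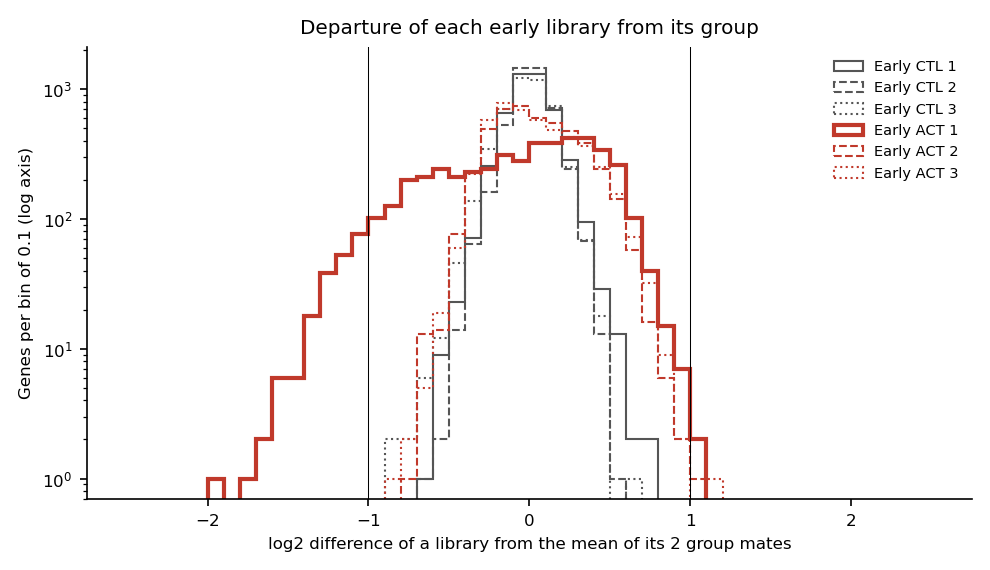
Distribution over 4729 genes of each early library's log2 difference from the mean of its 2 group mates (plain CPM with a pseudocount of 1), in bins of 0.1 with a log count axis and lines at 2-fold. The distribution of Early ACT 1 is the widest (SD 0.485) with 201 genes below -1, against SDs of 0.129 to 0.158 in unstimulated and 0.256 to 0.266 in the other stimulated libraries, whose group mates include Early ACT 1.

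Without Early ACT 1, 1554 of 12565 genes were called, 958 higher and 596 lower. Of the 855 genes called with it, 807 were called in the same direction without it, 48 only with it, and 747 further genes only without it. Of the 127 genes called among those chosen for naming, 4 lost their call without it (IRAK2, TLR1, DUSP16 and CFLAR, a caspase inhibitor gene with an adjusted p of 0.0183 with and 0.135 without it). The log2 fold change of CFLAR was 0.53 ± 0.14 with and 0.55 ± 0.20 without Early ACT 1. Among the genes with the largest changes, the log2 fold change went from -3.26 to -2.99 for CSPG4, 2.93 to 3.06 for IL12A, 2.72 to 2.74 for IL6, 2.39 to 2.52 for CSF3, -2.26 to -2.02 for TLR8, -2.14 to -2.10 for TXNIP and 2.10 to 2.37 for PMAIP1 on leaving it out. The fitted change was smaller with Early ACT 1 than without it for CXCL2 (1.99 and 2.19) and PTGS2 (1.80 and 2.02), and larger with it for TNF (1.91 and 1.71) and PLAUR (1.70 and 1.5).

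Marker lists of other cells were summed in each library. The sum of 11 CD14 monocyte genes was 10561 to 11084 CPM in unstimulated and 9633 to 10316 CPM in stimulated libraries, and that of 8 dendritic cell genes 110.4 to 126.5 and 91.6 to 109.2 CPM, with CLEC9A at 0 in all. The sum of 10 macrophage genes was 1540 to 1632 and 1676 to 2149 CPM, and that of 11 neutrophil genes 675 to 697 and 716 to 810 CPM. These 4 of 10 lists had groups that did not overlap (two-sided exact permutation p = 0.1, the smallest that 3 against 3 libraries allow), and their part in the changes above was not tested. T cell genes summed to 270 to 297 CPM unstimulated and 258 to 394 CPM stimulated, lowest in Early ACT 1. Of the 12 listed T cell genes, which include CD4, 10 were in the count table and 3 had enough counts to be tested. CSF3R is in both the CD14 monocyte and the neutrophil list. These sums therefore do not show that a given cell type was present.

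At 19 months after transplant, cells treated likewise gave no call between 3 stimulated and 3 unstimulated libraries by the edgeR test (0%). At an unadjusted p under 0.05 there were 527 genes. DESeq2 called 15, and the edgeR fit without Early ACT 1 called 29. All groups share an estimate of the spread, so the late calls also depend on the early libraries. The difference between the early and late responses was itself called for 167 genes (1.41%), 145 of them (1.23%) with a more positive response at 4.5 months and 22 (0.186%) with a more negative one, and 163 of the 167 were among the 855 genes called early. Without Early ACT 1 it was called for 546 genes, 166 of the 167 among them. The 541 genes called higher early had a median log2 fold change of 0.74 early and 0.08 late, and the 314 called lower -0.71 and -0.13. These medians describe genes chosen by their early response.

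For IL6 the late response was 0.57 ± 0.12 and the difference 2.14 ± 0.17 (SE, adjusted p = 9.17e-09). IL1B responded by 0.17 ± 0.11 late, a difference of 1.65 ± 0.15 (SE, adjusted p = 9.72e-08), with late levels of 40826 ± 4962 CPM unstimulated and 46053 ± 1742 CPM stimulated. Its late unstimulated level lay above the early unstimulated level of 12386, 12688 and 13708 CPM. TXNIP had a late response of -0.41 ± 0.12 and a difference of -1.73 ± 0.16 (SE, adjusted p = 9.72e-08), and its late level was 79.8 ± 2.15 CPM unstimulated and 60.3 ± 4.702 CPM stimulated, both near or below its early stimulated level. MX1 was lower on late stimulation by 0.57 on the log2 scale, without passing (adjusted p = 0.0691), and differed by 1.02 ± 0.15 (SE, adjusted p = 0.000196). The responses of IL12A (2.93 early, 1.53 late), DDX60 (2.08, 1.30) and OASL (1.19, 0.66) were not called as different between the times (adjusted p = 0.191, 0.358 and 0.284), which does not show that they are alike.

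**Figure D5:**
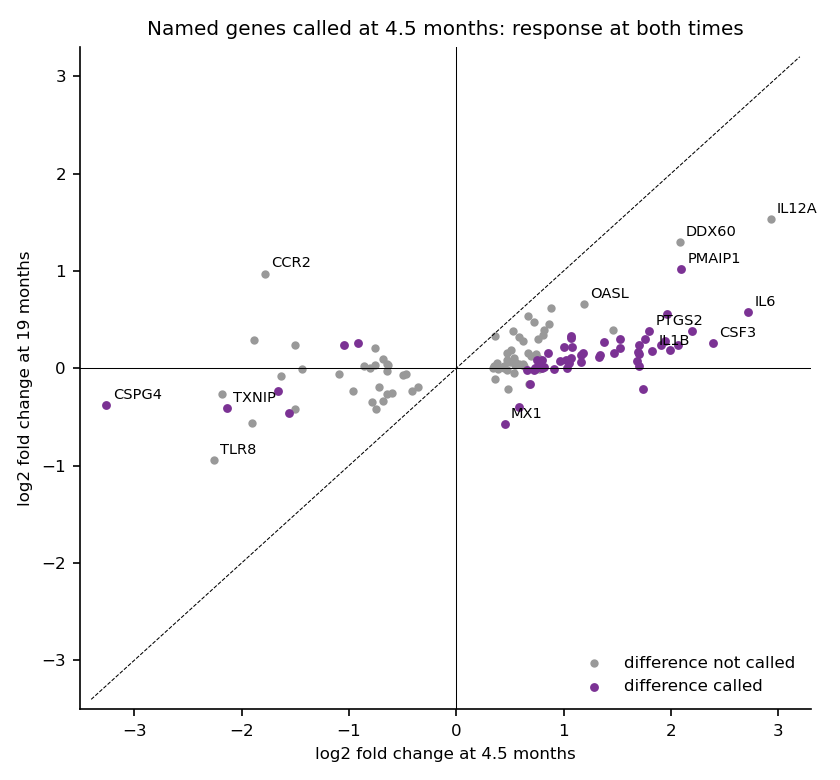
Log2 fold change on stimulation at 19 months (y axis) against that at 4.5 months (x axis) for the genes of the naming rule that were called at 4.5 months, with those called for the difference in purple and equal responses on the dashed line. IL6, CSF3 and IL1B lie near the horizontal axis on the right and TXNIP on the left.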

How the data were processed

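The 12 libraries were prepared with the SMART-Seq v4 and Nextera XT kits, which keep no strand information, per the labels' protocols. The authors' deposited table holds raw counts, whole numbers per gene, from 3910680 to 12972505 per library. The submitters' processing notes name bcl2fastq and build Mmul_8.0.1, while aligner and counter were not given in the sources used here. Of 32386 genes, 15658 had a usable symbol (from the table itself, a name table, the authors' tables or descriptions), and 11.5% of all counts fell in unnamed genes. Gene positions come from tables the authors deposited, whose other columns were not used here.

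Genes were tested with edgeR 4.0.16 in R 4.3.3 (robust quasi-likelihood F test, TMM scaling, filterByExpr by group, 1 coefficient per group over all 12 libraries, so that the groups share an estimate of the spread). Benjamini-Hochberg adjustment covered the 11826 genes tested, and adjusted p under 0.05 was the threshold for a call. The standard error (SE) was taken as the size of the log2 fold change divided by the root of F. Means are given with the SD over 3 libraries. CPM values are descriptive, and comparing levels between genes would need gene lengths. Reads carry no molecular identifiers. Alternatives were RLE and upper-quartile scaling, no low-count filter, DESeq2 1.42.0, a replicate block, only the early libraries, each library left out and, chosen after seeing the data, library totals alone. On simulated data 11262 genes were tested for this comparison. The fit recovered 28% of genes changed 1.5-fold, 60% at 2-fold and 98% at 4-fold, with 9 false calls. The simulation held no outlying library like Early ACT 1 and no difference in scaling factors like that of the real groups. These shares therefore need not hold for the real data.

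The members and the 26 pathway and 10 marker lists were chosen with earlier results of these data known, and no list was tested as a set. Genes named are up to 12 per direction with the largest change among called genes with a symbol, 5 CPM in a group and no overlap, up to 6 per list by p, 20 fixed genes (1 is not reported here), up to 8 per direction that differ most in Early ACT 1 and up to 5 per direction that differ most from the late response. Others are said to be named after their values were seen. No label pairs the libraries by number, and same-numbered early libraries did not deviate together (correlations -0.030 to 0.031). Numbers were therefore not taken as pairs, though such correlations among few libraries cannot exclude pairing.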

Additional observations from a re-analysis of the deposited data

Results flagged for a closer look

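The response to stimulation differed between 4.5 and 19 months for 167 genes by the interaction term of the edgeR fit (adjusted p under 0.05). The genes below are among them, given as the early minus the late log2 fold change. Such a difference does not separate a higher late unstimulated level from a lower late stimulated level. The late unstimulated mean was above the early stimulated mean for CXCL2 (10557 and 7472 CPM) and PTGS2 (7910 and 5327 CPM). It was below for IL6 (80.9 and 205 CPM) and NLRP3 (331 and 783 CPM), and other genes below lay on either side. Among cytokine and chemokine genes the difference was 2.14 for IL6, 2.13 for CSF3, 1.95 for IL12B, 1.83 for CCL3, 1.82 for CCL4L1, 1.80 for CXCL2, 1.67 for TNF, 1.66 for CXCL1 and 1.65 for IL1B. It was 1.61 for CCL20, 1.56 for IL23A, 1.53 for IL1A, 1.45 for CCL2 and 1.1 for CCL7. Among inflammasome, NF-kB and feedback genes it was 1.46 for NLRP3, 0.75 for GSDME, 0.92 for TNFAIP3, 0.89 for TRAF1, 0.86 for NFKBIZ, 0.79 for NFKBIA and 0.94 for IL1R2.

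Among matrix and metabolic genes the difference was 1.67 for PLAUR, 1.31 for MMP10, 1.20 for TFPI2, 1.02 for MMP1, 0.99 for SERPINB2, 1.41 for PTGS2, 1.03 for SLC2A1, 0.85 for PLIN2, 0.79 for ACOD1 and 0.71 for PNP. Stress response genes differed by 1.31 (ASNS), 1.20 (CHAC1), 1.09 (SHMT2), 0.97 (SESN2), 0.73 (XBP1) and 0.68 (PPP1R15A). Antiviral genes differed by 1.02 (MX1), 0.98 (OAS2), 0.75 (ISG20) and 0.74 (DHX58). Regulators of the cell cycle, of cell death and of transcription differed by 1.40 (CCNB1), 1.08 (PMAIP1), 0.74 (CDKN1A), 0.81 (ETS2), 0.77 (ID2), 0.74 (FOSL1) and 0.70 (MAFF), and the surface proteins CD276 and TREM2 by 1.22 and 0.67. The genes with a more negative response early than late differed by -2.88 (CSPG4), -1.73 (TXNIP), -1.43 (LRRC25), -1.17 (ARRDC3) and -1.1 (BMF). Groups of 3 libraries were not searched for single outlying values.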

How the results depend on the processing

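With single libraries left out, the number of genes called on early stimulation was 464 to 1554 (336 to 958 higher, 128 to 596 lower), with the lowest numbers without an unstimulated library and the highest without Early ACT 1. Fitting only the 6 early libraries gave 503 calls, 334 higher and 169 lower. Library totals without scaling factors gave 2413, 279 higher and 2134 lower, which follows from the shift of all genes given above. RLE, upper-quartile scaling, no low-count filter and DESeq2 gave 844 to 1032 calls. The number of genes with a different response at both times was 167, ranged from 95 to 546 with 1 library left out and was 313 by DESeq2. No label says that library numbers pair the samples, and with them as a replicate block 705 genes were called early and 111 for the difference. Of 127 named genes called, 81 kept the call under every alternative that gave an adjusted p (all 13, or 12 for ANPEP and TIFAB, to which DESeq2 gave none) and none reversed, while 37 sign changes occurred among genes not called. The calls lost were 26 to 33 without an unstimulated library, 4 without Early ACT 1, 17 and 21 without Early ACT 2 and 3, 26 with only the early libraries and 29 with library totals. Of 605 list members tested, 155 were called, and 111 to 204 under the alternatives. The 203 genes that set Early ACT 1 apart were 165 on TMM-scaled CPM, and without it 6 rather than 4 marker sums had groups apart. The planned description of promoter motifs was not run. Depth limits genes of few counts, such as CSPG4, TLR8 and IL12A.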

Other observations

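Several antiviral genes were called only when Early ACT 1 was left out, and are named here after their values were seen. This was general, with 747 genes called only without it. Over all genes tested, 12.4% were called without it and 7.23% with it. The genes below are therefore examples and not a trait of their lists. EIF2AK2, which encodes the RNA-activated kinase PKR, had a log2 fold change of 0.36 with all libraries (adjusted p = 0.245) and 0.53 without it (0.00865). HERC5 and HERC6, of the family that attaches ISG15, changed by 0.92 and 0.76 without it, EPSTI1 by 0.83 and IFI44 by 0.79, each with an adjusted p under 0.05 (edgeR quasi-likelihood test, Benjamini-Hochberg). In the NF-kB list the same held for BIRC2, a ubiquitin ligase gene of TNF receptor signaling (0.66), RIPK2, the kinase of NOD receptors (0.55), and REL, a subunit gene (0.46). Among immediate-early genes FOS, EGR2 and FOSL2 were called lower only without Early ACT 1 (-0.31, -0.37 and -0.39).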
